A study of Homo sapiens with 11 samples.

Results

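The comparison concerns NT2D1 cells in which a doxycycline-inducible short hairpin RNA (shRNA) against L1TD1 had been switched on, and sets the cells carrying the hairpin called shRNA5 against those carrying shRNA1. It was formed by taking only the arrays of doxycycline-treated (dox+) samples, which are 6 of the 11 arrays of the series, 3 per hairpin. Probes were used when their detection p was under 0.01 on at least 3 of these 6 arrays, which left 14307 of 48803 probes. The groups were shRNA5 dox+ (replicates 4, 5 and 6), shRNA1 dox+ (replicates 1, 2 and 3), and, set beside them, the non-induced cells of the same hairpins, shRNA5 dox- (replicates 4 and 5) and shRNA1 dox- (replicates 1, 2 and 3). All cells were stable NT2D1 clones with the TetR3 repressor and a hairpin against L1TD1, and total RNA was taken at day 6 after the start of induction. The hairpin is not spelled out in the sample titles: their first digit, 5 or 1, was matched to the hairpin names in the header of the deposited table.

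NT2D1 is a human embryonal carcinoma line, a tumour counterpart of the pluripotent cells of the early embryo, that holds the transcription factors POU5F1, SOX2 and NANOG and leaves this state when BMP or retinoic acid signals are added. L1TD1 is an RNA-binding protein of undifferentiated cells that descends from a LINE-1 retrotransposon open reading frame and associates with LIN28A. A hairpin is cut in the cell to a short guide RNA that lowers the transcripts it pairs with, and hairpins designed against a gene commonly pair with different stretches of its transcript.

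The study's design text describes 6 clones, and with 3 of them per hairpin, the hairpin and the clone cannot be told apart. No label assigns a clone to an array. The submitters left out a 12th sample because it did not group with its condition. No hairpin sequence was analysed here, and no group carries a hairpin without a target, so a gene that differs between the hairpins cannot be assigned to either of them.

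The arrays of both groups detected similar numbers of probes, 14046 ± 586 for shRNA5 dox+ and 14214 ± 913 for shRNA1 dox+ (SD, n = 3 each, two-sided exact permutation p = 1). The number of arrays limits the precision, and the smallest p that the exact test allows with 3 arrays against 3 is 0.1. The first principal component of the 6 arrays, with 30.4% of the variance, placed the shRNA5 arrays at -9.39, -21.2 and -27.5 and the shRNA1 arrays at 19.1, 25.6 and 13.3. The second component held nearly as much, 29.4%, and set shRNA5 replicate 5 (32.7) against shRNA5 replicate 6 (-30.6). Correlations between arrays over the kept probes ranged from 0.9612 to 0.9774 within shRNA5 dox+, from 0.9754 to 0.9826 within shRNA1 dox+, and from 0.9592 to 0.9769 between the groups. Replicate 5 of shRNA5 dox+ correlated best with replicate 3 of shRNA1 dox- (0.9778), and almost as well with replicate 4 of its own group (0.9774). Replicate 6 of shRNA5 dox+ was no closer to the others: its best correlation was 0.974, with replicate 4 of its group. For many gene lists whose counts or medians move without replicate 5, the values without it are given beside them. The same is done for differences of single genes that move by over 1.5 times. A list without such values may still move. For replicate 6 this is done only in part.

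**Figure D1:**
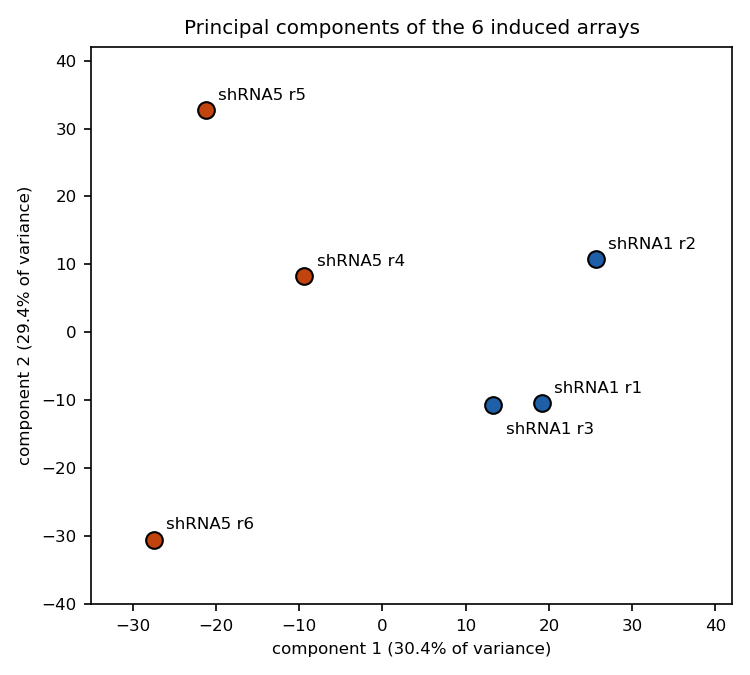
Principal components of the 6 induced arrays over the 14307 kept probes, in units of log2 level. The shRNA5 arrays (orange) lie left of the shRNA1 arrays (blue) on component 1, while component 2 parts shRNA5 replicate 5 from shRNA5 replicate 6.

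Embryonal carcinoma markers were detected in both groups, beside some markers of other cell types. Of 9 embryonal carcinoma markers with a probe, 8 were detected on all 6 arrays, and ZFP42 was at background on all of them. None of the 6 endoderm markers (AFP, GATA4, GATA6, SOX17, FOXA2, TTR) was detected on any array. Of 6 trophoblast markers 2 were detected on all arrays, KRT7 and GATA3, while the defining markers CGA and CDX2 were at background throughout. Their summed linear level was 308 to 414 in shRNA5 dox+, against 667 to 1095 in shRNA1 dox+. By mean log2 level TFAP2A differed most (5.67 in shRNA5 dox+, 8.32 in shRNA1 dox+), followed by GATA3 and HAND1. KRT7 did not follow (6.395 and 6.325), so the sum shows no shift of the whole set. TFAP2A, GATA3 and HAND1 are taken up again below. The 6 neuron markers with a probe summed to 468 to 644 in shRNA5 dox+, against 800 to 913 in shRNA1 dox+. All 6 were detected on some array, NEFM on all 6 arrays and PAX6 on 1 array of 6. By mean log2 level MAP2 (6.32 in shRNA5 dox+, 7.82 in shRNA1 dox+) and ELAVL3 (6.06 and 7.38) differed most. STMN2 (5.886 and 5.945) and NEFL (6.28 and 6.36) hardly differed. Mesenchyme markers had overlapping sums, 1269 to 3201 in shRNA5 dox+ and 1335 to 3092 in shRNA1 dox+. Of these 7 markers 4 were detected on all 6 arrays (COL1A1, COL1A2, TWIST1 and PDGFRB), and COL3A1, DCN and LUM were at background.

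The targeted transcript did not separate the hairpins. L1TD1 had levels of 8.09, 8.33 and 7.57 (log2) in shRNA5 dox+, against 8.04, 7.65 and 7.34 in shRNA1 dox+. The groups overlapped, with a difference of 0.32 ± 0.25 (SE, shRNA5 minus shRNA1; limma adjusted p = 0.645, two-sided exact permutation p = 0.4, n = 3 each). Without shRNA5 replicate 5 the difference was 0.15, and without shRNA5 replicate 6 it was 0.53. In non-induced cells L1TD1 stood at 8.82 and 8.91 with shRNA5, against 8.55, 8.57 and 8.86 with shRNA1. Its partner LIN28A differed by 0.03 ± 0.17 between the induced groups (0.06 without shRNA5 replicate 5).

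Across all 14307 probes, 1 probe, or 0.00699%, passed limma's test at a Benjamini-Hochberg adjusted p under 0.05, that of DLX5, lower in shRNA5 dox+. Without adjustment 1685 probes (11.8%) had a p under 0.05, of which 872 (6.09%) were higher and 813 (5.68%) lower in shRNA5 dox+. The arrays of the groups did not overlap for 2594 probes (18.1%), 9.32% of all probes in the higher and 8.81% in the lower direction. A fit of all 11 arrays, which takes the spread from all groups, called 6 probes (0.0419%), those of ACTN3, TFAP2A, AK4 and DNAJA4 and 2 unnamed ones, and missed DLX5 (adjusted p = 0.0504). Counting each of 9866 genes by its brightest kept probe, an unadjusted p under 0.05 was reached by 5.77% in the higher and 6.02% in the lower direction, and the groups did not overlap for 9.14% and 9.59%. DLX5 was the only gene (0.0101%) called by the fit of 6 arrays, and it passed the detection filter only through the shRNA1 arrays. The median difference over these genes was 0.00102, a value that the quantile normalization of the arrays holds near 0. Counts in the gene lists below are to be read against these shares, which are repeated beside several of them. All differences are log2 levels in shRNA5 dox+ minus shRNA1 dox+ with the SE.

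DLX5, a homeobox factor of the surface ectoderm border and the skeleton that BMP signals induce, fell below detection with shRNA5. Its levels were 5.20, 4.92 and 4.58 in shRNA5 dox+, all at background, against 7.29, 7.78 and 6.88 in shRNA1 dox+. Set against the detection level this is at least 2.97-fold lower in shRNA5 dox+ (means 4.90 ± 0.31 and 7.32 ± 0.45, SD, n = 3 each; limma adjusted p = 0.0394). The call rests on all 6 arrays: leaving out any 1 of them gave adjusted p-values between 0.0585 and 0.162, with DLX5 lower in each case. Its probe is 1 of 77 kept probes that were detected on the 3 arrays of only 1 group. Such a probe passes the filter only through the group where it is higher, so the filter favours its difference. FGFBP3, HES5 and MESP1 below also passed only through the shRNA1 arrays. DLX5 was also lower in non-induced cells, at 5.27 and 6.25 with shRNA5, against 7.30, 8.23 and 6.39 with shRNA1, but the nearest arrays were close and the test did not pass (difference -1.54 ± 0.45, adjusted p = 0.226).

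TFAP2A, a transcription factor of surface ectoderm, neural crest and trophoblast, had the largest fitted difference of the named genes. It stood at 5.94, 6.01 and 5.07 in shRNA5 dox+, against 8.11, 9.10 and 7.74 in shRNA1 dox+. The groups lay far apart, with a difference of -2.64 ± 0.36, but the limma adjusted p was 0.121. A second, dimmer TFAP2A probe showed -0.36 ± 0.19, so the probes agreed in direction and not in size. Non-induced cells had 5.89 and 5.88 with shRNA5, against 7.80, 7.48 and 6.79 with shRNA1, a difference of -1.47 ± 0.40 (adjusted p = 0.203).

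Of 25 listed genes of trophoblast and surface ectoderm 11 were measured, DLX5 (kept only through the shRNA1 arrays) and TFAP2A among them. Unadjusted p-values under 0.05 were reached by 4 of them, all lower in shRNA5 dox+ (all genes: 6.02% lower). The same number had arrays that did not overlap, also all lower (all genes: 9.59% lower). Beside DLX5 and TFAP2A these were GATA3, a factor that specifies trophoblast, and HAND1, a helix-loop-helix factor of trophoblast and lateral mesoderm. GATA3 had levels of 6.51, 6.11 and 7.18 in shRNA5 dox+, against 7.62, 7.67 and 7.57 in shRNA1 dox+ (-1.02 ± 0.26, adjusted p = 0.239). Without doxycycline the GATA3 values overlapped, at 6.60 and 6.81 with shRNA5, against 6.36, 6.82 and 5.66 with shRNA1. HAND1 differed by -1.01 ± 0.40 and was detected on 1 of 3 shRNA5 arrays. The median over the 11 genes was -0.183 in induced cells, against 0.132 in non-induced cells. It was -0.388 without shRNA5 replicate 5 and -0.0558 without shRNA1 replicate 2, and 0.0137 over the members detected on all 6 arrays, a filter that removes DLX5, so the list as a whole has no settled direction.

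**Figure D2:**
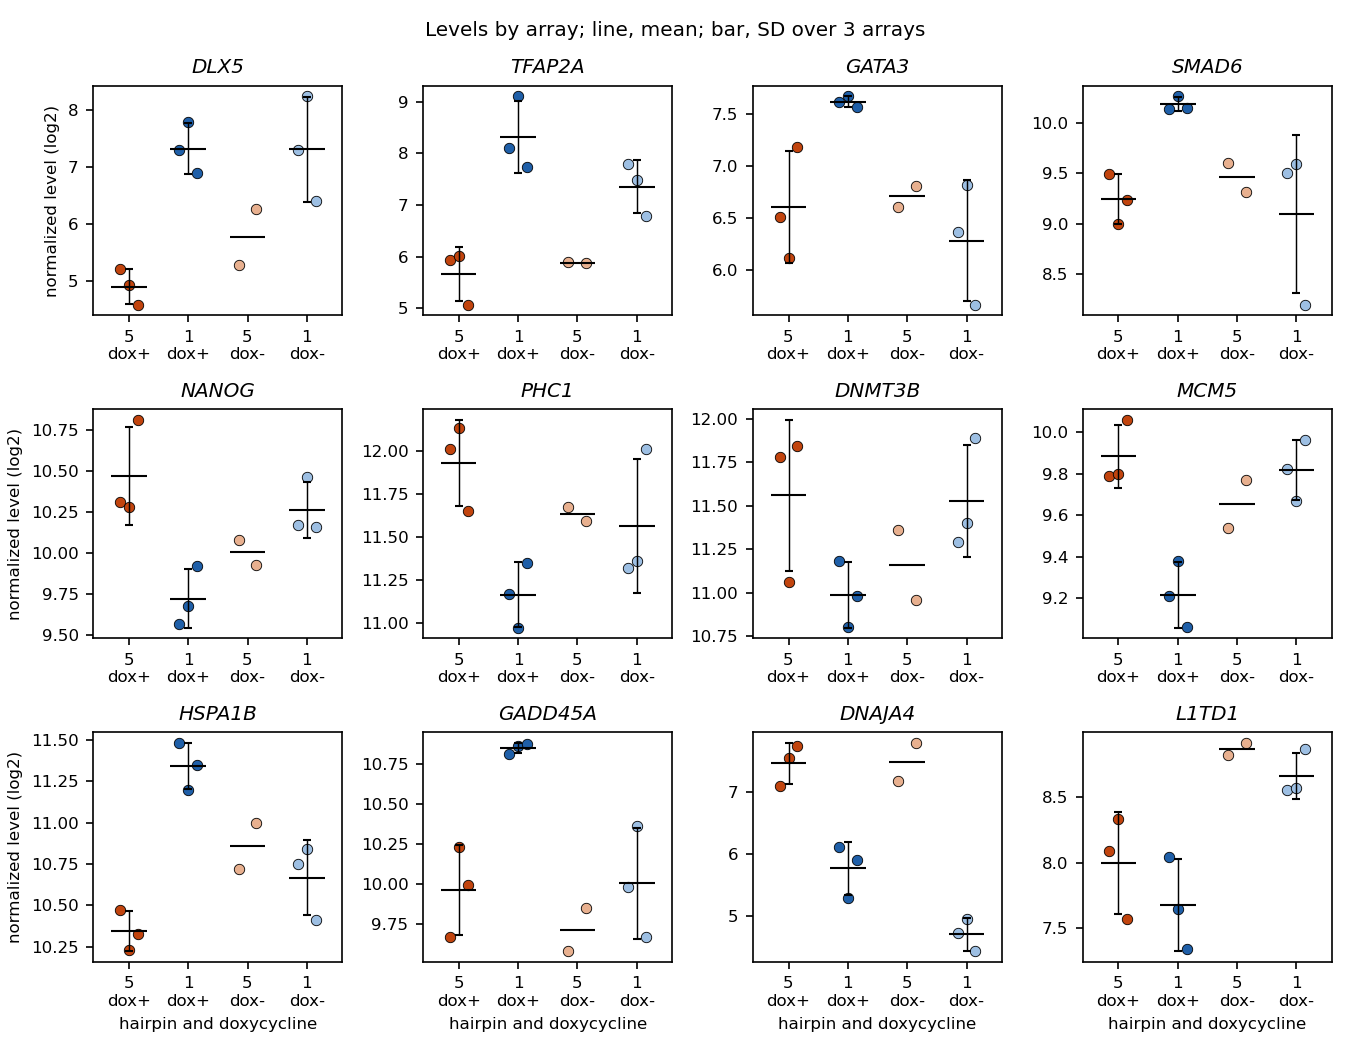
Normalized log2 levels of 12 genes on each array, with hairpin 5 left of hairpin 1 for induced (dark) and non-induced (light) cells; lines are means and bars SD over 3 arrays. DLX5, TFAP2A and DNAJA4 lie apart between the hairpins with and without doxycycline, whereas GATA3, SMAD6, MCM5 and HSPA1B lie apart on the induced arrays and overlap on the non-induced ones, and NANOG reverses its order. L1TD1 overlaps in both states.

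BMP signals act through receptors of types I and II and SMAD proteins to switch on ID genes and feedback inhibitors, and in pluripotent cells they favour trophoblast and surface ectoderm fates. Of 26 listed BMP and ID genes 20 were measured, and 16 of these were lower in shRNA5 dox+. Unadjusted p-values under 0.05 were reached by 5 lower genes and 2 higher ones (6 and 2 without shRNA5 replicate 5, with 14 lower in all). Among all genes 6.02% were lower and 5.77% higher at that p. The mean deviation of the list was -0.0941, -0.313 and -0.252 on the shRNA5 arrays, against 0.138, 0.508 and 0.0127 on the shRNA1 arrays. The median difference was -0.35 in induced cells, against 0.037 in non-induced cells, and ran from -0.405 to -0.28 with 1 array left out. DLX5, kept only through the shRNA1 arrays, and GATA3 stand in this list too.

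At the level of ligands and their antagonists, BMP7 and NOG, the secreted BMP antagonist noggin, were named after their values were seen. BMP7 had 7.68, 7.13 and 7.49 in shRNA5 dox+, against 7.91, 8.34 and 8.0 in shRNA1 dox+. NOG had 5.83, 5.17 and 4.87 in shRNA5 dox+, against 6.30, 6.65 and 5.54 in shRNA1 dox+, with overlap. The type II receptor BMPR2 went the other way, at 6.25, 6.62 and 6.26 in shRNA5 dox+, against 5.84, 5.67 and 5.29 in shRNA1 dox+, where it was detected on 1 of 3 arrays (0.77 ± 0.21, adjusted p = 0.27).

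Among the targets, SMAD6, an inhibitory SMAD that BMP signals induce as feedback, had 9.49, 9.0 and 9.24 in shRNA5 dox+, against 10.14, 10.26 and 10.15 in shRNA1 dox+. All shRNA5 arrays were lower, by -0.94 ± 0.19 (adjusted p = 0.171). In non-induced cells the difference was 0.36 ± 0.34, and the interaction of hairpin and doxycycline was -1.30 ± 0.45 (adjusted p = 0.318). SMAD7, which inhibits both BMP and NODAL signals, had 8.25, 8.21 and 8.31 in shRNA5 dox+, against 7.50, 7.76 and 7.78 in shRNA1 dox+, opposite to SMAD6. ID1 and ID3, the inhibitors of differentiation that report BMP activity most directly, overlapped between the groups: ID1 had 11.88, 11.26 and 12.52 in shRNA5 dox+, against 12.32, 12.18 and 12.19 in shRNA1 dox+. MSX1, a homeobox target of BMP, also overlapped, at 8.15, 7.59 and 5.77 in shRNA5 dox+, against 8.58, 10.35 and 7.34 in shRNA1 dox+.

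The SMAD6 promoter is shown because it holds a palindromic SMAD box, GTCTAGAC, given in capitals, whose first base lies 12 bases before the transcription start. The 300 bases around the start are from RefSeq (GRCh38.p14, chr15:66701986-66702285, plus strand).
SMAD6: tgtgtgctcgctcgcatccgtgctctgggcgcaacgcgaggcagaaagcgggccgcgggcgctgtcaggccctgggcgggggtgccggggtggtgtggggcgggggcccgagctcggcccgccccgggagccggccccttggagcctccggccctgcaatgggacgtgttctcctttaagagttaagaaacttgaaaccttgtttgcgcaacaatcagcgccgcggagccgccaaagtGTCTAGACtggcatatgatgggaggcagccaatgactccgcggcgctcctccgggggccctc
The box, which reads the same on both strands, was found in 1 of 16 promoters of the BMP and ID genes that had an entry and in 55 of all 27305 promoters (0.201%).

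The genes of the pluripotent state leaned the opposite way. Of 44 listed pluripotency factors 33 were measured, and 27 of these had higher values in shRNA5 dox+. An unadjusted p under 0.05 was reached by 9 higher and 0 lower genes (all genes: 5.77% higher, 6.02% lower), and 0 passed the adjusted threshold. The groups did not overlap for 7 higher genes and for 1 lower gene (SOX3, a relative of SOX2, picked with its values known). Among all genes these shares without overlap were 9.14% and 9.59%. The mean deviation of the list was 0.142, 0.135 and 0.229 on the shRNA5 arrays, against -0.184, -0.234 and -0.087 on the shRNA1 arrays, so no array of one group reached those of the other. The median difference was 0.368 in induced cells, against 0.0423 in non-induced cells. With 1 array left out it ran from 0.248 to 0.377, and without shRNA5 replicate 5 it was 0.377, with 26 genes higher and 12 of them at an unadjusted p under 0.05.

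NANOG, the homeobox factor that stabilises the undifferentiated state, had levels of 10.31, 10.28 and 10.81 in shRNA5 dox+, against 9.57, 9.68 and 9.92 in shRNA1 dox+. The groups did not overlap, with a difference of 0.74 ± 0.21 (limma adjusted p = 0.293). In non-induced cells NANOG had 10.08 and 9.93 with shRNA5, against 10.17, 10.46 and 10.16 with shRNA1, the opposite order. The interaction of hairpin and doxycycline was 1.00 ± 0.28, with an adjusted p of 0.273.

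PHC1, a polycomb protein whose gene neighbours NANOG in a region active in pluripotent cells, had 12.01, 12.13 and 11.65 in shRNA5 dox+, against 11.17, 10.97 and 11.35 in shRNA1 dox+ (0.77 ± 0.20, adjusted p = 0.26). THY1, a surface glycoprotein of human pluripotent cells, had 10.72, 10.68 and 11.03 in shRNA5 dox+, against 10.12, 10.16 and 10.14 in shRNA1 dox+. Both genes lay apart between the groups. TERF1, a telomere-binding protein abundant in pluripotent cells, had 9.52, 10.76 and 10.05 in shRNA5 dox+, against 9.57, 8.93 and 8.82 in shRNA1 dox+, and overlapped by 1 array.

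The core factors beside NANOG were less separated. POU5F1, the defining factor of the state, had 11.70, 11.36 and 12.44 in shRNA5 dox+, against 11.38, 10.81 and 11.62 in shRNA1 dox+ (0.56 ± 0.30, adjusted p = 0.491). Without shRNA5 replicate 5 the POU5F1 difference was 0.80 (unadjusted p = 0.0294), and without shRNA5 replicate 6 it was 0.25. SOX2, its partner, had 10.89, 11.41 and 9.52 in shRNA5 dox+, against 10.61, 10.53 and 10.32 in shRNA1 dox+. The SOX2 difference of 0.12 ± 0.39 became -0.28 without shRNA5 replicate 5, and its second probe gave -0.44 ± 0.28, so no direction can be given. DNMT3B, the de novo DNA methyltransferase of pluripotent cells, had 11.78, 11.06 and 11.84 in shRNA5 dox+, against 11.18, 10.80 and 10.98 in shRNA1 dox+, an overlap by 1 array (0.57 ± 0.24, adjusted p = 0.397). Its 3 dimmer probes gave 0.62, 0.53 and 0.20.

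The NANOG promoter is shown for its composite octamer and SOX element, CATTGT, then any base, then ATGCAAA, which lies on the reverse strand and is given in capitals, to which POU5F1 and SOX2 bind together. The sequence is from RefSeq (GRCh38.p14, chr12:7789152-7789451, plus strand).
NANOG: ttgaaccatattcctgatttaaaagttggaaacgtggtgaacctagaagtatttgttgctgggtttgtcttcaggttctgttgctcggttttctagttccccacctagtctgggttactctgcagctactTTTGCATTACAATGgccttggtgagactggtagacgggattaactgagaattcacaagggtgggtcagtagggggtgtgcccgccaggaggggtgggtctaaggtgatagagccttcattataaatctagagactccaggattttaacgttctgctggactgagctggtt
The letters, searched on both strands, occurred in 3 of 27305 promoters (0.011%), and NANOG was the only 1 of the 22 pluripotency genes with an entry that held them in this window.

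**Figure D3:**
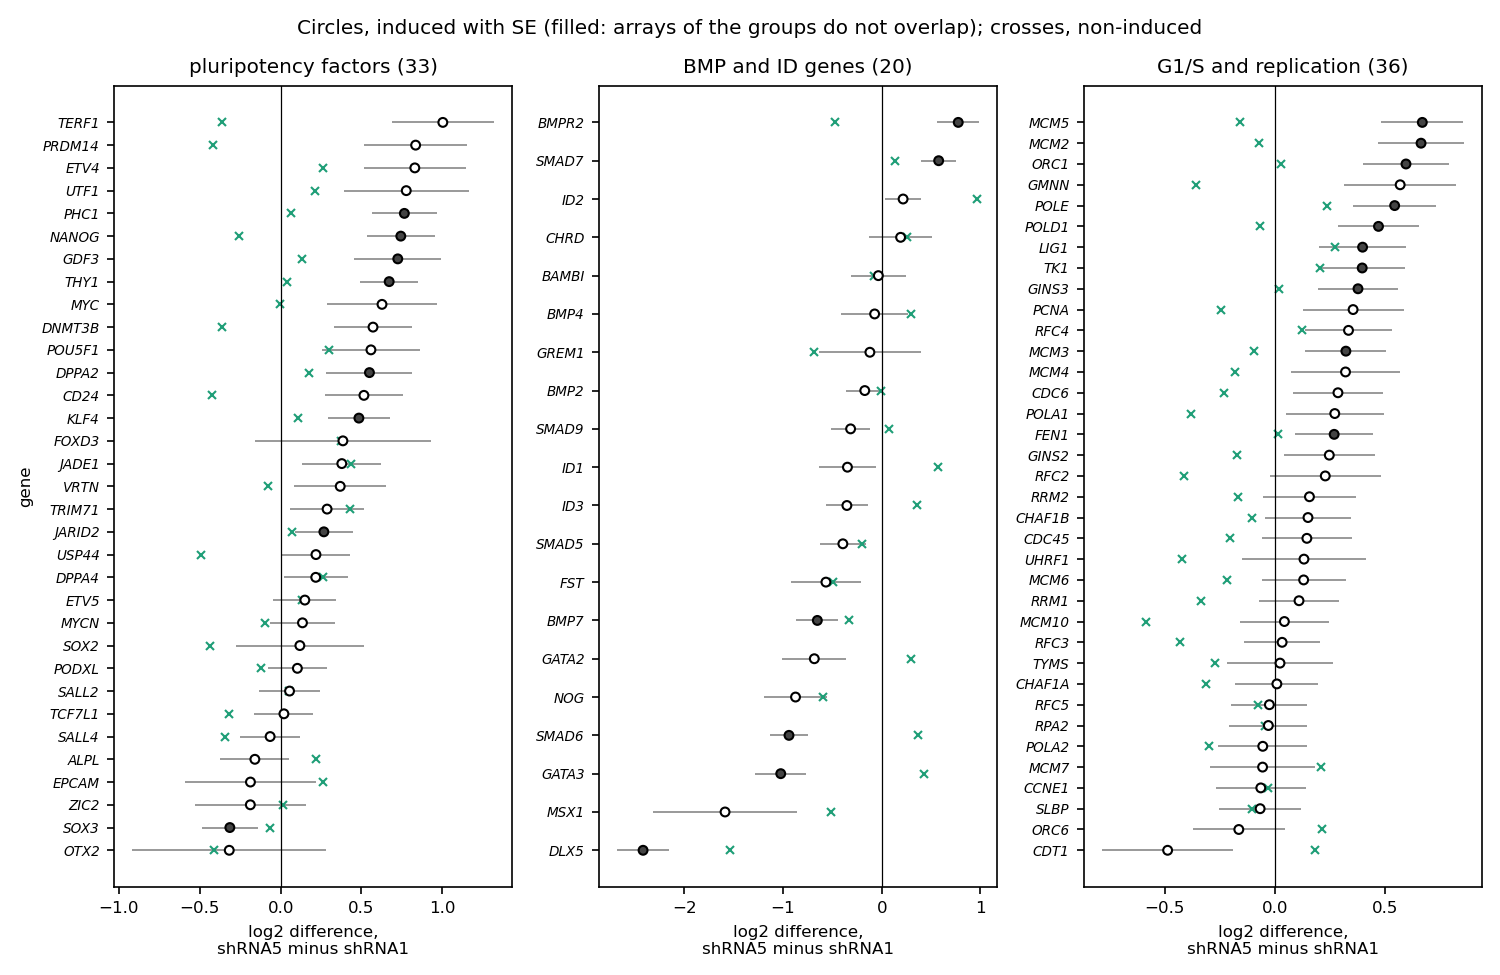
Log2 difference, shRNA5 minus shRNA1, for each measured pluripotency factor (33), BMP or ID gene (20) and gene of G1/S and replication (36); circles with SE bars are induced cells, filled where the arrays of the groups do not overlap, and crosses are non-induced cells. Most pluripotency and replication genes lie right of 0 and most BMP and ID genes left of it in induced cells; DLX5 is plotted at its fitted value, though it was at background in shRNA5 dox+.

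NODAL and FGF signals, which keep human pluripotent cells undifferentiated, were represented by 11 and 19 measured genes. Of the NODAL genes 3 were higher and 1 lower in shRNA5 dox+ at an unadjusted p under 0.05 (all genes: 5.77% higher, 6.02% lower). GDF3, a ligand related to NODAL, had 11.37, 10.87 and 11.89 in shRNA5 dox+, against 10.32, 10.84 and 10.80 in shRNA1 dox+. LEFTY2, a NODAL target that feeds back as an inhibitor, had 7.55, 5.81 and 6.91 in shRNA5 dox+, against 4.99, 5.97 and 5.24 in shRNA1 dox+, where it was detected on 1 of 3 arrays. It overlapped by 1 array, with shRNA5 replicate 5 the lowest of its group. The NODAL median was 0.0603, and between 0.0386 and 0.147 with 1 array left out, highest without shRNA5 replicate 5.

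Of the FGF genes 4 were higher and 1 lower at an unadjusted p under 0.05 (all genes: 5.77% higher, 6.02% lower). The receptor FGFR4 had 9.32, 9.34 and 9.97 in shRNA5 dox+, against 8.75, 8.35 and 8.85 in shRNA1 dox+ (0.89 ± 0.23, adjusted p = 0.259). SPRY1 and DUSP6, feedback inhibitors of the pathway that are named for their small p, had higher values too. SPRY1 had 11.20, 10.96 and 11.39 in shRNA5 dox+, against 10.48, 10.55 and 10.77 in shRNA1 dox+. DUSP6, the phosphatase that turns off ERK, had 6.10, 6.79 and 6.49 in shRNA5 dox+, against 5.62, 5.98 and 5.61 in shRNA1 dox+. FGFBP3, a secreted FGF-binding protein, was at background on all shRNA5 arrays and at least 1.71-fold lower (means 5.21 and 6.52, adjusted p = 0.199). Of the 19 genes 9 were higher and 10 lower, with a median of -0.0588. With shRNA5 replicate 5 left out 11 were higher and 8 lower, 4 and 2 of them at an unadjusted p under 0.05, and the median was 0.169, so the list as a whole has no settled direction.

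Neural genes were mostly lower with shRNA5. Of 28 listed 16 were measured, with 12 lower. An unadjusted p under 0.05 was reached by 6 lower genes and 1 higher gene (all genes: 6.02% lower, 5.77% higher). TUBB3, the neuronal tubulin, had 11.28, 11.03 and 10.95 in shRNA5 dox+, against 11.93, 11.97 and 11.69 in shRNA1 dox+ (-0.78 ± 0.19, adjusted p = 0.221). ELAVL3, a neuronal RNA-binding protein, had 6.06, 5.57 and 6.56 in shRNA5 dox+, against 7.75, 6.81 and 7.58 in shRNA1 dox+. MAP2, a protein of dendrites, had 7.12, 7.04 and 4.81 in shRNA5 dox+, against 7.86, 8.21 and 7.39 in shRNA1 dox+. Its difference of -1.50 ± 0.53 was -0.74 without shRNA5 replicate 6. The groups did not overlap for these 3 genes.

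HES5, a NOTCH target of neural progenitors, was at background on all shRNA5 arrays, at least 1.29-fold lower (means 5.19 and 6.11, adjusted p = 0.295), and it was at background in shRNA5 dox- cells too. With shRNA1 it had 7.46, 6.54 and 6.33 without doxycycline, a larger fitted difference of -1.75 ± 0.34 (limma adjusted p = 0.1). MAP2 was also lower on both shRNA5 dox- arrays than on any shRNA1 dox- array (-0.59 ± 0.53). The neural median was -0.244 in induced cells, against -0.104 in non-induced cells. The induced median was -0.111, with 10 genes lower, when shRNA5 replicate 5 was left out, and -0.411 when shRNA5 replicate 4 was. In the list of retinoid and HOX genes, 8 of 12 measured members were lower and 1 reached an unadjusted p under 0.05 (all genes: 6.02% lower). That gene, CYP26B1, which breaks down retinoic acid, had 7.83, 7.70 and 7.48 in shRNA5 dox+, against 8.44, 8.61 and 8.88 in shRNA1 dox+. The retinoid median was -0.333, and between -0.345 and -0.172 with 1 array left out. Each shRNA5 array moved it by over 1.5 times, and it was -0.172, with 10 genes lower, without replicate 5. MESP1, an early mesoderm factor, was at background with shRNA5 and at least 1.31-fold lower (means 5.21 and 6.13, adjusted p = 0.327). In all these bulk samples, fewer cells of a type and less RNA per cell cannot be told apart.

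Genes of the G1/S transition and of DNA replication tended to be higher with shRNA5, and a mixed list of G1 regulators and p53 targets tended to be lower. Of 40 listed replication genes 36 were measured, 28 of them higher. At an unadjusted p under 0.05 there were 6 higher and 0 lower (8 and 0 without shRNA5 replicate 5), and 10 higher and 0 lower without overlap. Among all genes 5.77% were higher at that p, and 9.14% were higher without overlap. The mean deviation of the list was 0.134, 0.0761 and 0.0924 on the shRNA5 arrays, against -0.17, 0.0836 and -0.216 on the shRNA1 arrays, so shRNA1 replicate 2 lay above shRNA5 replicate 5 and the groups overlapped. MCM5, a subunit of the replicative helicase, had 9.79, 9.80 and 10.06 in shRNA5 dox+, against 9.21, 9.38 and 9.06 in shRNA1 dox+ (0.67 ± 0.19, adjusted p = 0.28). MCM2, of the same helicase, had 11.28, 11.21 and 11.01 in shRNA5 dox+, against 10.41, 10.77 and 10.33 in shRNA1 dox+. ORC1, of the origin recognition complex, had 9.79, 9.85 and 10.05 in shRNA5 dox+, against 9.12, 9.57 and 9.22 in shRNA1 dox+. The groups were apart for each of these. The list median was 0.191 in induced cells, against -0.133 in non-induced cells, and ran from 0.15 to 0.335 with 1 array left out, highest without shRNA1 replicate 2. CDT1, the licensing factor, which was named after its values were seen, had the lowest difference of the list, with 10.76, 9.66 and 10.84 in shRNA5 dox+, against 10.86, 11.08 and 10.78 in shRNA1 dox+ (-0.49, and -0.11 without shRNA5 replicate 5).

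Among G1 regulators and p53 targets 28 of 40 were measured, 21 were lower, and the differences ran from -0.884 to 0.663. An unadjusted p under 0.05 was reached by 7 lower and 0 higher genes (all genes: 6.02% lower, 5.77% higher). GADD45A, a growth arrest gene induced by DNA damage, had 9.67, 10.23 and 9.99 in shRNA5 dox+, against 10.81, 10.86 and 10.87 in shRNA1 dox+ (-0.88 ± 0.20, adjusted p = 0.199), and its second probe gave -1.11 ± 0.18. The kinase inhibitor CDKN1C had 8.0, 7.91 and 8.25 in shRNA5 dox+, against 9.10, 8.61 and 8.49 in shRNA1 dox+. The inhibitor CDKN2D had 6.77, 7.64 and 7.29 in shRNA5 dox+, against 7.91, 7.91 and 7.81 in shRNA1 dox+. Here too the groups were apart. The list median was -0.269 in induced cells, against -0.0839 in non-induced cells, and -0.128 without shRNA1 replicate 3. With shRNA5 replicate 5 left out 21 genes were lower, 3 of them at an unadjusted p under 0.05.

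Most mitotic genes had lower values, but by little. All 34 listed were measured, 23 had lower values, 0 reached an unadjusted p under 0.05 (all genes: 11.8%), and the differences ranged from -0.39 to 0.397. The median was -0.103 in induced cells, against -0.0668 in non-induced cells. The mean deviation of the list overlapped, at -0.03, 0.0488 and -0.125 on the shRNA5 arrays, against 0.0728, 0.146 and -0.113 on the shRNA1 arrays. MKI67, the proliferation antigen, had the smallest p of the list, with a difference of 0.40 ± 0.23 (unadjusted p = 0.119). With shRNA5 replicate 5 left out, 27 mitotic genes had lower values, 1 higher and 1 lower gene reached an unadjusted p under 0.05, and MKI67 differed by 0.62 (unadjusted p = 0.0163, adjusted p = 0.354). Of 15 measured histone genes 4 were lower and 1 higher at an unadjusted p under 0.05 (all genes: 6.02% lower, 5.77% higher). The histone median was -0.158, and between -0.225 and 0.0376 with 1 array left out, so the list as a whole has no settled direction. Among the lower genes was H2AC18, with 6.69, 6.72 and 6.81 in shRNA5 dox+, against 8.18, 7.29 and 7.95 in shRNA1 dox+. H2BC5 had 8.64, 9.06 and 8.93 in shRNA5 dox+, against 10.09, 9.24 and 9.97 in shRNA1 dox+, and a difference of 0.82 ± 0.26 in the opposite direction without doxycycline. The number of histone genes with lower values was 9, and 13 without shRNA5 replicate 5. Histone genes are near-identical copies, so a probe may read several of them. Of 17 measured BCL2 family genes 2 were higher and 2 lower at an unadjusted p under 0.05 (all genes: 5.77% higher, 6.02% lower). Without shRNA5 replicate 5 there was 1 in each direction. BAD, a promoter of cell death, was lower by -0.77 ± 0.18 (adjusted p = 0.199), and BCL2L1, a survival protein, higher by 0.52 ± 0.19 (adjusted p = 0.355). The unadjusted p of BCL2L1 was 0.0219, and 0.0574 without shRNA5 replicate 5, and its second probe gave 0.22 ± 0.18. The other genes with such a p were BAK1, lower by -0.61 ± 0.22 (adjusted p = 0.353), and BOK, higher by 0.55 ± 0.23 (adjusted p = 0.394).

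**Figure D4:**
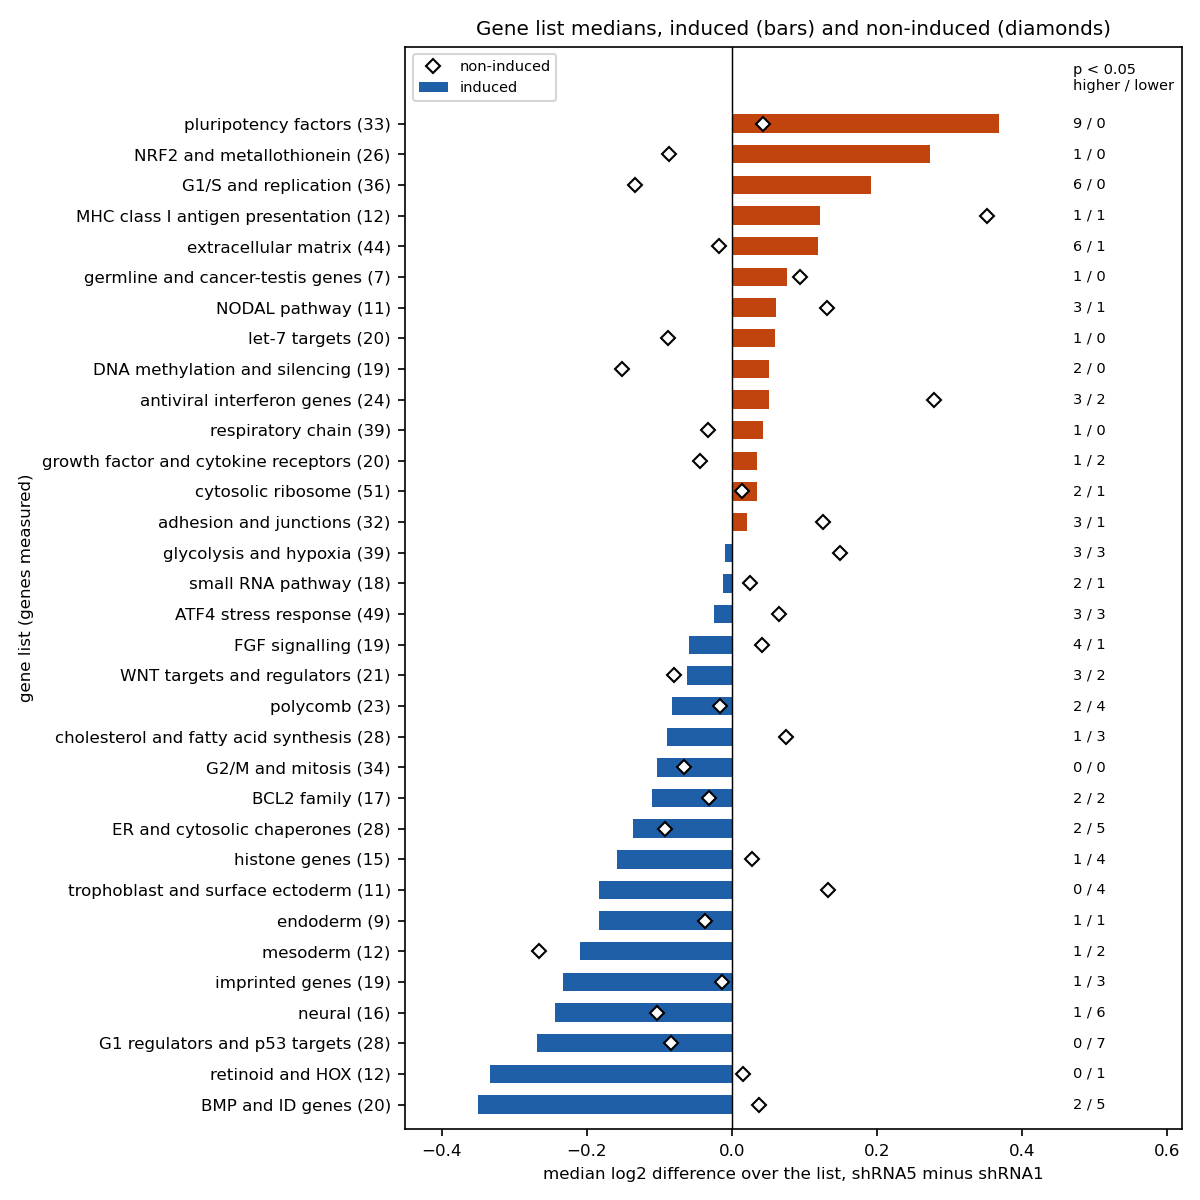
Median log2 difference, shRNA5 minus shRNA1, over the measured genes of each list with at least 5 such genes, as bars for induced and diamonds for non-induced cells; the numbers at the right count genes with an unadjusted p under 0.05 in each direction. Pluripotency factors (0.368) stand at the top and BMP and ID genes (-0.35) at the bottom, while the diamonds of both lie near 0.

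Among chaperones the inducible HSP70 genes were lower with shRNA5. HSPA1B had 10.47, 10.23 and 10.33 in shRNA5 dox+, against 11.48, 11.20 and 11.35 in shRNA1 dox+ (-1.0 ± 0.18, adjusted p = 0.165). HSPA1A had 6.51, 6.00 and 6.98 in shRNA5 dox+, against 7.92, 7.67 and 7.50 in shRNA1 dox+. These genes encode the same protein and are nearly identical, so their probes may share signal. BAG3, a partner of HSP70, was lower by -0.49 ± 0.18 (adjusted p = 0.353).

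DNAJA4, a co-chaperone of the DNAJ family, was higher, with 7.09, 7.54 and 7.73 in shRNA5 dox+, against 6.11, 5.29 and 5.91 in shRNA1 dox+ (1.68 ± 0.26, adjusted p = 0.129). Without doxycycline it had 7.17 and 7.78 with shRNA5, against 4.73, 4.96 and 4.44 with shRNA1, where it was at background (adjusted p = 0.00334). Of the 28 chaperones measured 10 were higher and 18 lower (12 and 16 without shRNA5 replicate 5). The arrays did not overlap for 4 higher and 5 lower ones (all genes: 9.14% and 9.59%). At an unadjusted p under 0.05 there were 2 higher and 5 lower (all genes: 5.77% and 6.02%), or 1 and 4 without shRNA5 replicate 5. The other higher gene with such a p, named after its values were seen, was HSPD1, a mitochondrial chaperonin (0.49, unadjusted p = 0.0446, and 0.32 without shRNA5 replicate 5).

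The HSPA1B promoter is shown with the inverted half-sites of a heat shock element, GAANNTTC, in capitals. The sequence is from RefSeq (GRCh38.p14, chr6:31827488-31827787, plus strand).
HSPA1B: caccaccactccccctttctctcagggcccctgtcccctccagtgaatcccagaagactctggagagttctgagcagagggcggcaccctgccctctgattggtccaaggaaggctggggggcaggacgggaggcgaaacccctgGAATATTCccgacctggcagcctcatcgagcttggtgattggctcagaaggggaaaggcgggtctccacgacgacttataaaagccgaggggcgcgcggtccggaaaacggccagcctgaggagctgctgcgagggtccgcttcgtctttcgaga
These letters, which read the same on both strands, occurred in 5 of 28 chaperone promoters (17.9%) and in 1875 of 27305 promoters (6.87%). HSPA1B is among the 5.

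The ATF4 stress response, the program of amino acid synthesis and transport genes, had no settled direction as a list. Of 49 measured genes 22 were higher and 27 lower, with a median of -0.0248, and 3 in each direction had an unadjusted p under 0.05 (all genes: 5.77% higher, 6.02% lower). Leaving out shRNA5 replicate 5 turned this to 28 higher and 21 lower, with 3 higher and 0 lower at an unadjusted p under 0.05 and a median of 0.0293. Over all arrays left out in turn the median ran from -0.158 to 0.0581. Single members still lay apart: TARS1, the threonyl-tRNA synthetase, had 9.67, 9.71 and 9.62 in shRNA5 dox+, against 8.96, 8.89 and 8.94 in shRNA1 dox+ (0.74 ± 0.17, adjusted p = 0.199). In non-induced cells its difference was -0.71 ± 0.23. PCK2, mitochondrial phosphoenolpyruvate carboxykinase, had 10.57, 10.91 and 11.20 in shRNA5 dox+, against 10.15, 9.88 and 10.34 in shRNA1 dox+. PCK2 differed by 0.81 without doxycycline as well.

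Antiviral interferon genes respond to double-stranded RNA in many cell types. Of 24 measured antiviral genes 3 were higher and 2 lower in shRNA5 dox+ at an unadjusted p under 0.05 (all genes: 5.77% and 6.02%). Their median was 0.0507 in induced cells, against 0.278 in non-induced cells. With 1 array left out the median ran from -0.0607 (without shRNA5 replicate 6) to 0.238 (without shRNA5 replicate 5, with 3 higher and 1 lower at that p). OAS3, which makes the activator of RNase L, had 7.29, 7.36 and 7.46 in shRNA5 dox+, against 6.37, 6.02 and 6.94 in shRNA1 dox+ (0.92 ± 0.24, adjusted p = 0.25). MX2, a GTPase that blocks viruses, had 7.57, 8.12 and 8.56 in shRNA5 dox+, against 9.09, 8.88 and 9.04 in shRNA1 dox+ (-0.92 ± 0.25, adjusted p = 0.27). MX2 had the same difference, -0.92 ± 0.26, without doxycycline, so these genes split between the directions. Of 26 measured NRF2 targets and metallothioneins 20 were higher, 6 of them without overlap (all genes: 9.14%). Only 1, MT1H, was higher at an unadjusted p under 0.05 (all genes: 5.77%), or 4 without shRNA5 replicate 5. The median of these genes was 0.273 in induced cells, against -0.0868 in non-induced cells, and 0.206 without shRNA5 replicate 5. Metallothionein genes are close copies, so their probes may share signal.

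In the extracellular matrix 44 of 56 listed genes were measured, and 6 were higher and 1 lower at an unadjusted p under 0.05 (6 and 2 without shRNA5 replicate 5). Among all genes 5.77% were higher and 6.02% lower at that p. COL1A2, a chain of type I collagen, had 9.56, 9.61 and 8.23 in shRNA5 dox+, against 6.48, 8.24 and 6.59 in shRNA1 dox+. The groups met at a single pair of arrays, and the spread within each was wide (2.03 ± 0.49, adjusted p = 0.221). TNC, the matrix protein tenascin, had 9.62, 8.76 and 9.88 in shRNA5 dox+, against 8.02, 8.95 and 8.24 in shRNA1 dox+, with overlap. LOX, which crosslinks collagen, had 6.78, 7.07 and 6.19 in shRNA5 dox+, against 5.37, 6.11 and 5.90 in shRNA1 dox+. MMP9, a matrix protease, had 7.42, 7.45 and 7.71 in shRNA5 dox+, against 6.59, 6.93 and 6.53 in shRNA1 dox+. LOX and MMP9 lay apart between the groups, and for the whole list the median was 0.119, and between 0.0155 and 0.215 with 1 array left out, lowest without shRNA1 replicate 1 and highest without shRNA1 replicate 2.

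The genes with the smallest p in the higher direction came from no single list. AK4, a mitochondrial adenylate kinase, had 8.51, 9.03 and 9.23 in shRNA5 dox+, against 7.39, 7.25 and 7.61 in shRNA1 dox+ (1.51 ± 0.23, adjusted p = 0.121), and its other 2 probes gave 1.35 and 1.09. PIM2, a survival kinase, had 11.70, 11.72 and 11.88 in shRNA5 dox+, against 10.75, 10.63 and 10.51 in shRNA1 dox+ (1.13 ± 0.18, adjusted p = 0.129). IPO4, a nuclear import receptor, had 8.21, 8.38 and 8.51 in shRNA5 dox+, against 7.41, 7.31 and 7.54 in shRNA1 dox+. SLC19A1, the reduced folate carrier, had 7.44, 7.63 and 7.71 in shRNA5 dox+, against 6.85, 6.41 and 6.46 in shRNA1 dox+. For none of them did the arrays of the groups overlap. NLRP12, HCLS1 and IL34 were at background on all shRNA1 dox+ arrays and at least 1.32-fold, 1.28-fold and 1.30-fold higher in shRNA5 dox+. Each of them passed the detection filter only through the shRNA5 arrays, the group where it is higher.

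In the lower direction, ACTN3, a muscle actin crosslinker, had 5.69, 5.39 and 5.57 in shRNA5 dox+, against 7.37, 6.83 and 6.78 in shRNA1 dox+ (-1.45 ± 0.21, adjusted p = 0.121). SEPTIN5, a filament-forming GTPase, averaged 9.75 ± 0.22 in shRNA5 dox+, against 10.93 ± 0.32 in shRNA1 dox+ (SD, n = 3 each). TMED1, a cargo receptor of the secretory pathway, had 8.53, 8.41 and 8.39 in shRNA5 dox+, against 9.45, 9.28 and 9.38 in shRNA1 dox+. OXCT2, a ketone body transferase, KCNJ4, a potassium channel, and ADAP2, an ARF GTPase regulator, had differences of -0.95, -1.04 and -1.0. These genes were lower on every shRNA5 array. ACTN3 and ADAP2 were detected on only 1 of 3 shRNA5 dox+ arrays, so their sizes depend on the processing. In the other settings with all 6 arrays ACTN3 ran from -1.47 to -0.83 and ADAP2 from -1.13 to -0.53. NBPF9 belongs to a family of near-identical copies, and its probes pointed in opposite directions.

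The hairpins' cells also differed without doxycycline, in some of the same genes and in others. In non-induced cells 7 of the same 14307 probes (0.0489%) passed limma's adjusted threshold, those of DNAJA4, NLRP7, MB, PADI3, ART5 and FAIM2 and 1 unnamed probe, and 1663 (11.6%) had an unadjusted p under 0.05. Without shRNA5 dox- replicate 4 that count was 1, without replicate 5 of that group 0, and without shRNA1 dox- replicate 2 it was 11. Of the 1685 probes with an unadjusted p under 0.05 in induced cells, 855 (50.7%) had the same sign in non-induced cells, against 49.1% of all kept probes. Of the 7 probes called without doxycycline, those of DNAJA4 and NLRP7 and the unnamed one also had small unadjusted p-values in induced cells, 6.31e-05, 0.000408 and 2.99e-05. NLRP7, an inflammasome-family gene active in oocytes and early embryos, differed in both states: it had 7.20, 6.92 and 7.66 in shRNA5 dox+, against 5.93, 5.65 and 6.34 in shRNA1 dox+. In non-induced cells NLRP7 had 7.77 and 7.26 with shRNA5, against 5.08, 5.33 and 5.21 with shRNA1, all 3 at background (adjusted p = 0.00334). Its 3 probes agreed in direction.

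**Figure D5:**
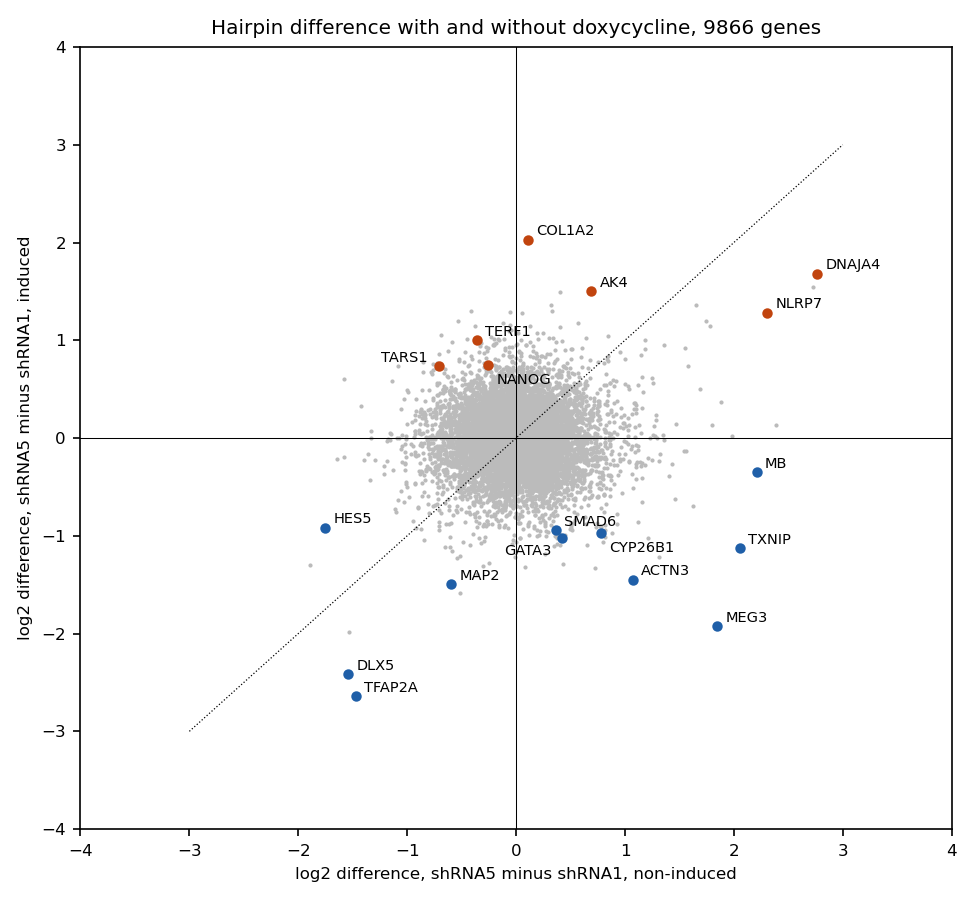
Log2 difference, shRNA5 minus shRNA1, of each of 9866 genes in induced cells (vertical) against non-induced cells (horizontal), with a dotted line where both are equal. DLX5, TFAP2A, DNAJA4 and NLRP7 keep their sign in both states, while MEG3, TXNIP, ACTN3 and CYP26B1 are higher with shRNA5 in non-induced and lower in induced cells.

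The test of whether a hairpin difference itself differs between induced and non-induced cells called 3 probes (0.021%), of ACTN3, MB and RAP1GDS1, and 1769 (12.4%) had an unadjusted p under 0.05. ACTN3 had 6.09 and 6.26 in shRNA5 dox-, against 5.23, 5.12 and 4.96 in shRNA1 dox-, the reverse of its order in induced cells (interaction -2.52 ± 0.28, limma adjusted p = 0.00904). Its adjusted p was 0.0837 without shRNA5 dox- replicate 4 and 0.0964 (interaction -2.43) without shRNA5 dox- replicate 5, and between 0.0143 and 0.0376 without any other array. TXNIP, a glucose-responsive inhibitor of thioredoxin, had 9.72, 8.58 and 9.65 in shRNA5 dox+, against 11.13, 9.89 and 10.33 in shRNA1 dox+. In non-induced cells TXNIP was reversed, at 10.34 and 9.67 with shRNA5, against 8.46, 8.17 and 7.21 with shRNA1 (interaction -3.19 ± 0.59, adjusted p = 0.19).

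MEG3, an imprinted long noncoding RNA, had 7.88, 7.53 and 5.14 in shRNA5 dox+, against 9.55, 8.04 and 8.72 in shRNA1 dox+. This difference of -1.92 ± 0.63 was -1.06 without shRNA5 dox+ replicate 6. MEG3 stood at 8.49 and 8.95 in shRNA5 dox-, against 7.15, 7.76 and 5.71 in shRNA1 dox- (interaction -3.77 ± 0.98, adjusted p = 0.259). CYP26B1 reversed as well, at 7.80 and 8.09 in shRNA5 dox-, against 6.94, 7.42 and 7.15 in shRNA1 dox- (interaction -1.75 ± 0.29, adjusted p = 0.101). The non-induced values come from 2 shRNA5 arrays, and of the shRNA1 dox- arrays replicate 3 was the lowest for TXNIP and MEG3.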

How the data were processed

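Total RNA of the samples was hybridised to Illumina bead arrays. Raw signals come from the deposited table: a linear intensity for each probe on each array and, per the file headers, the detection p-value of that signal. A deposited matrix holds the authors' normalized intensity and served as an alternative. The submitters' processing notes name limma, and the version is not given in the sources used here. All per-sample columns were used, and 0 pairs of arrays were identical.

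All 11 arrays went through limma 3.58.1 (R 4.3.3, statmod 1.5.0): its neqc function inferred the background with the help of the detection values, after which an offset of 16, quantile normalization and log2 were applied. Of all probes 28098 had 1 gene symbol, 13 several and 20692 none here; 12332 of the 14307 kept probes had 1. A gene was represented by its brightest kept probe; 2088 of 9866 genes had more than 1. Of the 148 named genes 36 had several probes, which agreed in direction in 29; the others were CDC25A, L1CAM, LAMB1, LSS, NBPF9, SOX2 and TARBP2.

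The induced groups were compared with limma on their 6 arrays, two-sided, with Benjamini-Hochberg adjustment over all kept probes. The non-induced difference and the interaction came from a fit of 4 group means on 11 arrays. Single values were also compared with an exact permutation test. P-values measure the spread between these arrays only. A gene at background on all arrays of a group has a lower bound of its fold, against the lowest signal detected on each array or its own where higher, averaged over the group's arrays. With such genes at their bound the median of 0 lists moved. Detection was called at p under 0.01. The list scores are the mean over the list of each gene's level minus its mean over the 6 arrays. The steps were tested on simulated data.

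The members and the 34 gene lists, some of which share genes, were chosen with earlier results of these data known. Named were L1TD1, LIN28A, POU5F1, SOX2, NANOG and DNMT3B; the 10 genes with the smallest p in each direction, since fewer than 5 passed; the 4 with the smallest p in each list; and the 5 with the smallest interaction p. Alternatives were other normalizations, offsets, filters and fits, the replicate number as a block, and leaving out each array.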

Additional observations from a re-analysis of the deposited data

Results flagged for a closer look

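The hairpin difference differed between induced and non-induced cells for 3 genes by limma's interaction test. ACTN3 was lower with shRNA5 in induced cells and higher in non-induced cells, an interaction of -2.52 ± 0.28 on the log2 scale (adjusted p = 0.00904); it was at background on all shRNA1 dox- arrays, so the fitted value is no bound.

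MB, the muscle oxygen carrier myoglobin, had 6.91, 6.62 and 6.31 in shRNA5 dox+, against 7.11, 6.51 and 7.28 in shRNA1 dox+. It had 7.60 and 7.14 in shRNA5 dox-, against 4.95, 5.46 and 5.07 in shRNA1 dox-, all 3 at background. Its interaction was -2.56 ± 0.36 (limma adjusted p = 0.0379), and the adjusted p rose above the threshold without most single arrays, to 0.223 without shRNA5 dox- replicate 4.

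RAP1GDS1, an exchange factor of small GTPases, was reached through a dimmer probe and named after its values were seen. That probe had 5.99, 6.09 and 6.20 in shRNA5 dox+, against 4.71, 5.04 and 5.25 in shRNA1 dox+, and 4.85 and 4.99 in shRNA5 dox-, against 6.03, 5.76 and 6.30 in shRNA1 dox-. Its interaction was 2.20 ± 0.29 (limma adjusted p = 0.0228), and the other 2 probes of RAP1GDS1 gave -0.18 and 0.30. The called probe passed the detection filter only through the shRNA5 dox+ arrays. It was at background on all shRNA1 dox+ and shRNA5 dox- arrays and was detected on 2 of 3 shRNA1 dox- arrays. Its fitted size therefore depends on the background level.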

How the results depend on the processing

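The count of probes past the threshold between the induced groups, 1, was 1 with normalization on the 6 arrays and with median scaling, 2 with an offset of 50, 4 with a trended robust prior, 6 with all 11 arrays in 1 fit, 12 when that fit had the replicate number as a random replicate block, and 76 with array weights. It was 0 with the authors' normalized values, without background correction, without a detection filter, with detection on all 6 arrays (where DLX5 is not tested), and without any 1 array (0 to 0). Unadjusted, 1142 to 1847 probes had a p under 0.05 in the last case. The non-induced count of 7 was 5 to 9 in the other settings and 0 to 11 without 1 array, reaching 0 without shRNA5 dox- replicate 5, 1 without shRNA5 dox- replicate 4 and 11 without shRNA1 dox- replicate 2. The interaction count of 3 was 3 with the random replicate block and with median scaling, 0 with the authors' values, 1 with no detection filter, 0 with the fixed replicate block (2683 unadjusted), 0 to 4 without 1 array, and 0 (1212 unadjusted) without both shRNA1 dox- replicate 3 and shRNA5 dox+ replicate 5, a setting chosen after seeing the data. Same-numbered arrays deviated together with correlations of 0.0598 to 0.272, over 0.1 in 2 of 5 pairs, and 1 of 5 dox- arrays lay closest to its own number, so the number was not taken as a pairing.

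L1TD1 differed by 0.254 to 0.333 in the settings with all 6 arrays and by 0.151 to 0.531 without 1 array, and passed in none of them. No named gene changed sign in a setting that kept all 6 arrays; without 1 array LIN28A ranged from -0.0183 to 0.0862, SOX2 from -0.282 to 0.662 and NLRP2 from -1.39 to 0.657, none of them called, and no other named gene changed sign. Array weights took 27 named genes past the threshold. The cause of these shifts was not tested. The DLX5 adjusted p was 0.0161 to 0.206 in the settings with all 6 arrays, over the threshold with the authors' values and without background correction (0.0555 each), with 11 arrays (0.0504) and without a filter (0.206). Genes near background, DLX5 among them, are limited by signal: their size depends on the offset and the background correction.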

Other observations

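Some gene groups gave values near the background shares. Of 51 measured cytosolic ribosome genes 2 were higher and 1 lower in shRNA5 dox+ at an unadjusted p under 0.05, with a median of 0.0341. RPS7, a small-subunit protein, averaged 10.57 ± 0.12 in shRNA5 dox+, against 9.64 ± 0.43 in shRNA1 dox+ (SD, n = 3 each; difference 0.93 ± 0.23, limma adjusted p = 0.233); ribosomal protein genes have many near-identical pseudogenes, which its probes may share. Respiratory chain genes had a median of 0.0425 over 39, in which CYCS, cytochrome c, differed by 0.69 ± 0.18 (adjusted p = 0.246). The 39 genes of glycolysis and hypoxia had 3 in each direction (1 in each without shRNA5 replicate 5) and a median of -0.00919. With 1 array left out these 3 medians changed sign, running from -0.0163 to 0.0459, from -0.0135 to 0.0988 and from -0.0308 to 0.00972. Among 20 measured let-7 targets, which LIN28 proteins indirectly protect, 1 was higher and 0 lower (2 and 0 without shRNA5 replicate 5), HMGA1, a chromatin protein, by 0.69 ± 0.21 (adjusted p = 0.303).

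Polycomb genes split: beside PHC1, higher with shRNA5, BMI1 was lower by -0.66 ± 0.21 (adjusted p = 0.324) and MTF2 by -0.66 ± 0.22 (adjusted p = 0.327), and BMI1 had a difference of -0.65 without doxycycline too. In the small RNA pathway that also handles hairpins, 2 of 18 genes were higher and 1 lower at an unadjusted p under 0.05 (all genes: 5.77% and 6.02%). Without shRNA5 replicate 5 there were 1 higher and 2 lower. AGO2, the slicing argonaute, differed by -0.53 ± 0.18 (adjusted p = 0.333) and DGCR8, the partner of DROSHA, by 0.61 ± 0.24 (adjusted p = 0.374). Of 19 measured imprinted genes 15 were lower, with a median of -0.233 in induced cells, against -0.0143 in non-induced cells. With 1 array left out it ran from -0.407 (without shRNA1 replicate 3) to -0.173 (without shRNA1 replicate 2), and without shRNA5 replicate 5 it was -0.305.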
